A study of Mus musculus with 11 samples.

Results

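The integrin activators and the focal adhesion core were described in mouse LSK cells, the lineage-negative, Sca-1+ Kit+ bone marrow cells among which stem cells and early progenitors are found. The 10 genes are the talin gene Tln1, the kindlin genes Fermt3 and Fermt2, the integrin-linked kinase gene Ilk, the tyrosine kinase genes Ptk2 and Ptk2b, the adaptor genes Pxn and Crk, and the actin linkers Vcl and Zyx. They were chosen by gene symbol, with no rule on their values, though with earlier results of these data known. All 10 of 10 were found among 22113 named genes on the array, each with a single transcript cluster, the array's set of probes for 1 gene. Sorted cells of Klf5 knockout mice (KO, labelled MxlCre_KLF5KO) were set against those of wild-type mice (WT, labelled MxlCre_KLF5WT), all of strain C57BL/6. As the labels name the Cre transgene in both genotypes, the controls carry it too. Mx1-Cre is driven by an interferon-inducible promoter and is active in blood cells and in other tissues. The sources used here name no inducing agent, no age of the mice and no pooling of RNA.

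Integrins are held in a low-affinity state until talin and a kindlin bind the cytoplasmic tail of the beta subunit. Bound integrins then gather a plaque in which ILK, the kinases FAK and Pyk2 and the adaptor paxillin pass signals on, while vinculin and zyxin tie the plaque to actin filaments. In blood cells kindlin-3 is the main kindlin, and its loss in humans and mice impairs the adhesion of leukocytes and platelets. The study's title places beta1 and beta2 integrins at the membrane of homing progenitors, and the genes below encode the proteins that act on the inner side of those integrins.

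Values are log2 RMA signals, the background-corrected and quantile-normalized summary of a gene's probes, and 1 log2 unit is a 2-fold difference. The comparison rests on a table of 9 arrays, KO replicates 2 to 5 and WT replicates 2 to 6. KO replicate 1 and WT replicate 1 were normalized apart in a table of 2 arrays and are given without a test of their own. They entered a fit only in the alternative setting with all 11 arrays. No source here says whether their RNA is apart from that of the 9 arrays, so they are not taken as an independent repeat. Klf5 itself was at 6.72, 6.58, 6.76 and 6.69 in KO replicates 2 to 5, against 6.77, 6.98, 6.94, 6.98 and 6.77 in WT replicates 2 to 6. The Klf5 difference was -0.20 (limma adjusted p = 0.916), without overlap between the groups, and no source here says whether its probes cover the deletion, so it is a limited check of the labels. All 12 stem and progenitor markers, Kit and Ly6a (Sca-1) among them, lay above the negative-control median of the array on 9 of 9 arrays. Those medians ran between 5.27 and 5.62, but the 95th percentile of the negative controls ran between 8.76 and 9.34, so lying above the median does not show that a transcript is present. Every value of the 10 genes on the 9 arrays, up to 8.25, lay below that percentile. KO replicates 2 and 5 and WT replicate 6 carried both Xist and Y-linked signal, and those arrays and WT replicate 2 had Hbb-b1 between 9.25 and 10.68, against 6.39 to 7.43 on the others.

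None of the 10 genes passed the adjusted threshold of 0.05 in the limma fit over 28944 transcript clusters, of which 0.0% passed. Their adjusted p ran between 0.916 and 0.993. Differences (KO minus WT) were above 0 for 5 genes and below 0 for 5, with a median of -0.001, against a median of -0.019 over all transcript clusters. At an unadjusted p under 0.05 there were 2 of 10 genes, Crk with a higher mean in KO and Fermt2 with a lower one, where 4.08% of all transcript clusters reached that level, 1.45% higher and 2.63% lower in KO. A count of 2 among 10 genes is too small to call the group particular. With a shared value counted as overlap, KO and WT values overlapped in all 10 genes. The groups did not overlap in 0.985% of all transcript clusters, 0.259% higher and 0.726% lower in KO. In Vcl and Fermt2 the groups met only at a shared value, 7.1833 and 5.0441, with KO otherwise higher in Vcl and lower in Fermt2. How many of all transcript clusters met in this way was not counted, so the pattern is not read as particular to these genes. Identical values on 2 or more arrays were common, in 57.5% of all transcript clusters. Sorbs3, an adhesion gene outside this group, also met only at a shared value. The 95% interval of each of the 10 differences excluded a 2-fold change of the signal in either direction, and for 7 of them it excluded a 1.5-fold change. RMA signals near background understate changes of the transcript, so these bounds hold for the signal. In bulk RNA from sorted cells, fewer cells of a type and less RNA per cell cannot be told apart.

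**Figure D1:**
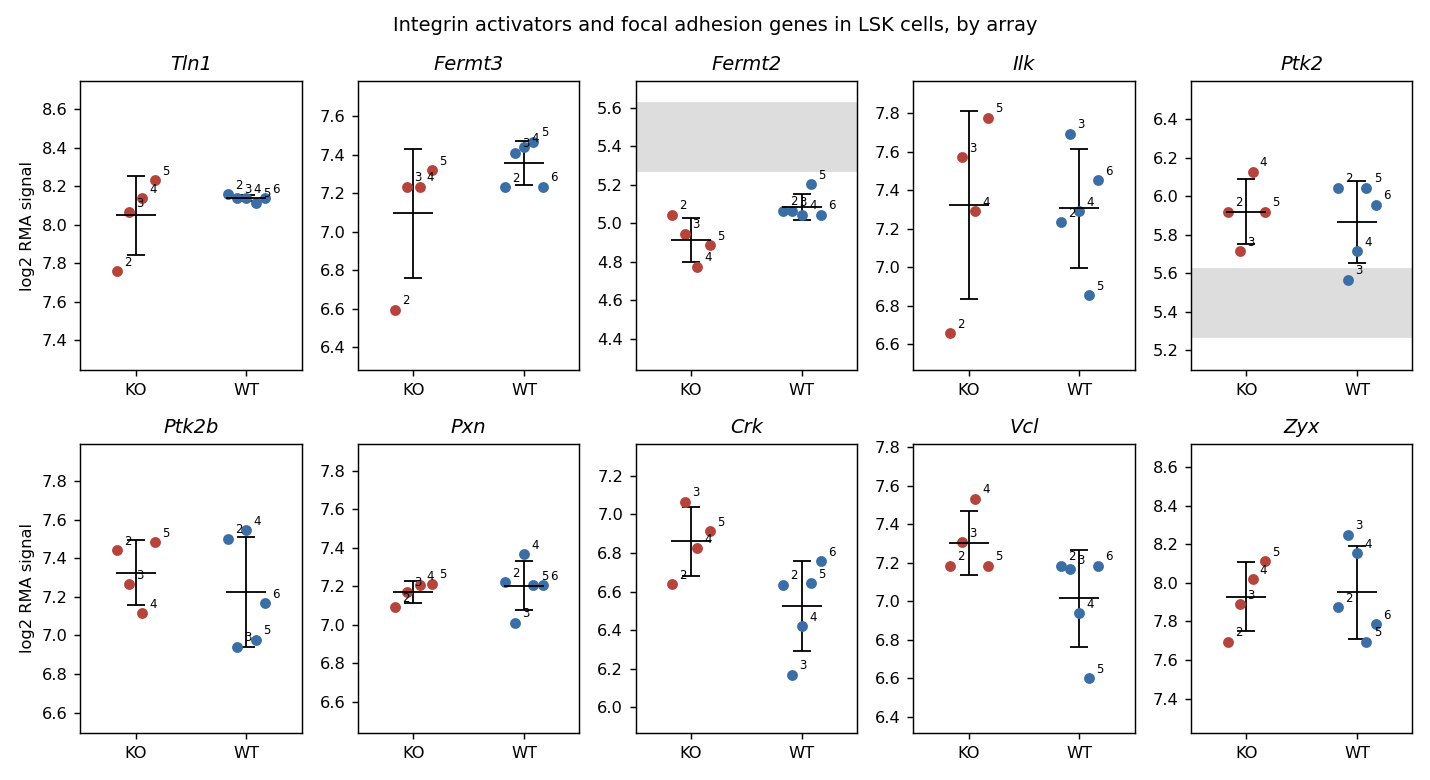
Log2 RMA signal (y axis, 1.5 log2 units in every panel) of the 10 genes on the 4 KO arrays and the 5 WT arrays, with replicate numbers beside the points; bars are the mean and SD, and the grey band is the range of negative-control medians. Fermt2 lies below the band in both groups, and KO replicate 2 stands low in Tln1, Fermt3 and Ilk. KO and WT points overlap in every panel, in Vcl and Fermt2 only at a shared value. How often groups met in this way over all transcript clusters was not counted.

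Tln1 encodes talin-1, the actin-binding protein whose head domain activates integrins. Tln1 (transcript cluster 10512514) had signals of 7.76, 8.07, 8.14 and 8.23 in KO replicates 2 to 5, against 8.16, 8.14, 8.14, 8.11 and 8.14 in WT replicates 2 to 6. The WT arrays spanned 0.04 log2 units, while KO replicate 2 was below all others and KO replicate 5 above all others. Its difference was -0.09 (95% interval -0.30 to 0.12, limma adjusted p = 0.919), and 0.008 without KO replicate 2. The SD was 0.20 in KO (n = 4) and 0.02 in WT (n = 5). KO replicate 4 and WT replicates 3, 4 and 6 all held the identical value 8.1374.

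Fermt3 encodes kindlin-3, which binds beta integrin tails beside talin. Fermt3 (transcript cluster 10465587) was at 6.60, 7.23, 7.23 and 7.32 in KO replicates 2 to 5, against 7.23, 7.41, 7.44, 7.47 and 7.23 in WT replicates 2 to 6. KO replicate 2 stood apart below the rest, the other KO arrays lay inside the WT range, and the means were 7.10 ± 0.34 in KO and 7.36 ± 0.11 in WT (SD, n = 4 and 5). The difference of -0.26 (95% interval -0.59 to 0.07, limma adjusted p = 0.916) was -0.094 without KO replicate 2. In the 2-array table KO was at 7.34 and WT at 7.11, so the sign there was the opposite.

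Fermt2 encodes kindlin-2, the broadly expressed kindlin of adherent cells. Fermt2 (transcript cluster 10419223) had signals of 5.04, 4.94, 4.77 and 4.89 in KO replicates 2 to 5, against 5.07, 5.06, 5.04, 5.20 and 5.04 in WT replicates 2 to 6. It lay below the negative-control median on all 9 arrays, the only gene of the 10 to do so, with a mean distance from it of -0.54 log2 units in KO and -0.28 in WT. Its difference of -0.17 (95% interval -0.34 to -0.005) had an unadjusted p of 0.0452 and a limma adjusted p of 0.916, and KO replicate 2 shared the value 5.0441 with WT replicates 4 and 6. A separate limma fit without KO replicate 4 gave -0.125, at an unadjusted p of 0.135. At this level the order of the groups lies within the background of the arrays. The 2 separately normalized arrays gave 5.32 in KO and 5.44 in WT.

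RefSeq's GRCm38.p6 table of promoter windows, 250 bases before to 50 after a gene's start, held 7 of the 10 genes. Those of the kindlin pair are shown because one kindlin gene read above the negative-control median on every array and the other below it. The Fermt3 window lies at chr19:7019420-7019719 and the Fermt2 window at chr14:45530016-45530315, each on the minus strand and printed 5′ to 3′. Capitals mark the GC box, searched as GGGCGG, the CACCC box, searched as those letters, and the CArG box, the site of serum response factor, each on both strands.

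Fermt3: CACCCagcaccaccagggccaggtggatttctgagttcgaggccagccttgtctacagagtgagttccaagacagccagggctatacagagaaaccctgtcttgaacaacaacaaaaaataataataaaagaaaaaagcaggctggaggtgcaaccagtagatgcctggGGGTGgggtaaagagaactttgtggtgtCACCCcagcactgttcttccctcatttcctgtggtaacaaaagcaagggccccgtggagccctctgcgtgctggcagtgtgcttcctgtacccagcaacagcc
Fermt2: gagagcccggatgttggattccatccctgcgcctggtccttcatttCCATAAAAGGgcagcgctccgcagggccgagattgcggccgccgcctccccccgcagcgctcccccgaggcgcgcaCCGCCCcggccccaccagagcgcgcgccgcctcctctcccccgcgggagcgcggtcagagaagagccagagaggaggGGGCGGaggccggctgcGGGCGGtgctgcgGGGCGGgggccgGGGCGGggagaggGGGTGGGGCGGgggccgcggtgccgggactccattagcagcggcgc

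The Fermt3 window had a GC content of 52.3% with 0 GC boxes and 3 CACCC boxes, and the Fermt2 window 76.7% with 6 GC boxes, 1 CACCC box and 1 CArG box. No GC box overlapped a CACCC box in either. Over 32851 windows of the same length, 35.7% held a GC box, 57.5% a CACCC box and 1.63% a CArG box, and the median GC content was 52.7%. GC and CACCC boxes are motifs that SP and KLF proteins can bind, and a match is a description of the letters, not a bound site.

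Ilk encodes integrin-linked kinase, a pseudokinase that joins beta integrin tails to parvins and actin. Ilk (transcript cluster 10556005) was at 6.66, 7.57, 7.29 and 7.77 in KO replicates 2 to 5, against 7.23, 7.69, 7.29, 6.86 and 7.45 in WT replicates 2 to 6. It had the widest ranges of the 10 genes, 1.12 log2 units in KO and 0.84 in WT, with KO replicate 2 lowest and KO replicate 5 highest of all 9 arrays. The difference was 0.02 (95% interval -0.51 to 0.55, limma adjusted p = 0.993). It was 0.241 without KO replicate 2 and -0.131 without KO replicate 5, so its sign changed with the array left out.

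Of the adhesion kinases, Ptk2 encodes focal adhesion kinase (FAK) and Ptk2b its relative Pyk2, the form prominent in blood cells. Ptk2 (transcript cluster 10429341) had signals of 5.92, 5.71, 6.13 and 5.92 in KO replicates 2 to 5, against 6.04, 5.57, 5.72, 6.04 and 5.96 in WT replicates 2 to 6. All 9 values exceeded the negative-control median of their array, by a mean of 0.47 in KO and 0.50 in WT, and the groups ran over much the same range. The Ptk2 difference was 0.06 (95% interval -0.23 to 0.34, limma adjusted p = 0.956).

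Ptk2b (transcript cluster 10420957) was at 7.44, 7.26, 7.11 and 7.48 in KO replicates 2 to 5, against 7.50, 6.94, 7.55, 6.98 and 7.17 in WT replicates 2 to 6. WT arrays fell into higher values in replicates 2 and 4 and lower ones in replicates 3, 5 and 6, and the KO arrays lay between these extremes. Its difference was 0.10 (95% interval -0.24 to 0.44, limma adjusted p = 0.935), and -0.052 when KO replicates 2 and 5 and WT replicate 6 were left out.

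Pxn encodes paxillin, the scaffold on which FAK and vinculin dock. Pxn (transcript cluster 10524703) had signals of 7.09, 7.17, 7.21 and 7.21 in KO replicates 2 to 5, against 7.22, 7.01, 7.37, 7.21 and 7.21 in WT replicates 2 to 6. The KO arrays spanned 0.12 log2 units, the narrowest KO range of the 10 genes, inside the WT range of 0.35. The difference was -0.03 (95% interval -0.21 to 0.15, limma adjusted p = 0.961), with a fold interval of 0.864 to 1.107 for the signal.

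Crk encodes an SH2 and SH3 adaptor that binds phosphorylated paxillin and p130Cas and recruits an exchange factor for the small GTPase Rap1, itself a switch for integrin activation. Crk (transcript cluster 10378732) was at 6.64, 7.07, 6.82 and 6.91 in KO replicates 2 to 5, against 6.63, 6.17, 6.42, 6.64 and 6.76 in WT replicates 2 to 6. KO replicates 3, 4 and 5 lay above every WT array, KO replicate 2 lay within the WT range, and WT replicate 3 was lowest. The means were 6.86 ± 0.18 in KO and 6.53 ± 0.23 in WT (SD, n = 4 and 5), a 1.26-fold difference of the signal (log2 0.34, 95% interval 0.04 to 0.64). The unadjusted p was 0.0322 and the limma adjusted p 0.916. The difference was 0.156 (limma unadjusted p 0.337) once Xist and the Y-linked mean entered the fit as covariates, and 0.255 (unadjusted p 0.0691) over all 11 arrays with a term for the table. Xist was above 9 on all 4 KO arrays and on 2 of the 5 WT arrays, so sex-linked levels differed between the groups. In the 2-array table KO was at 7.76 and WT at 7.87, opposite in sign to the 9 arrays.

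**Figure D2:**
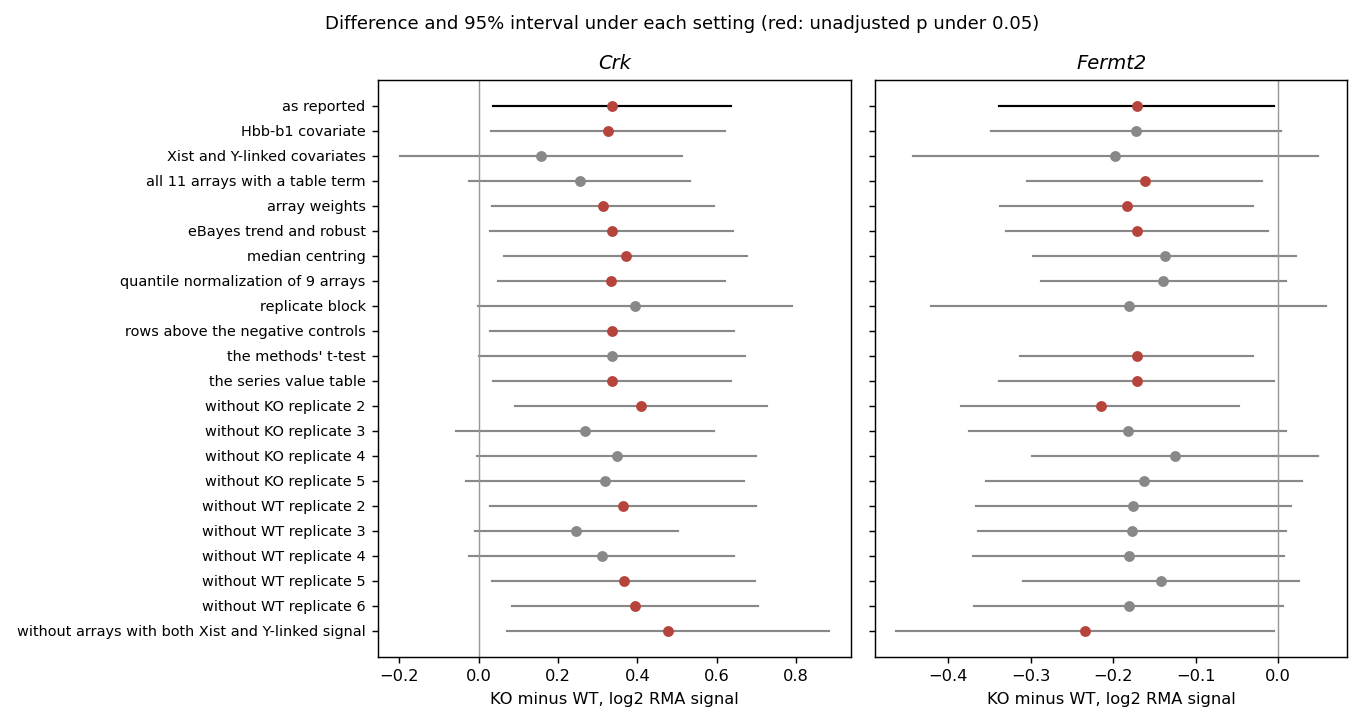
Difference KO minus WT in log2 RMA signal (x axis) with its 95% interval for Crk and Fermt2 under each processing setting (rows), the reported setting on top; red points had an unadjusted p under 0.05. Crk stays above 0 between 0.156 and 0.478, Fermt2 stays below 0 between -0.234 and -0.125, and no value passed adjustment.

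Vcl encodes vinculin, which binds talin under tension and reinforces its link to actin. Vcl (transcript cluster 10413059) had signals of 7.18, 7.31, 7.53 and 7.18 in KO replicates 2 to 5, against 7.18, 7.17, 6.94, 6.60 and 7.18 in WT replicates 2 to 6. KO replicates 3 and 4 lay above every WT array, while KO replicates 2 and 5 and WT replicates 2 and 6 held the identical value 7.1833. Its difference of 0.29 (95% interval -0.02 to 0.60) had an unadjusted p of 0.0656 and a limma adjusted p of 0.916. It was 0.184 without WT replicate 5, the lowest array, and 0.448 when KO replicates 2 and 5 and WT replicate 6 were left out. In the 2-array table KO was at 7.68 and WT at 7.65.

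The promoter windows of Crk and Vcl are shown because these genes had the largest differences above 0 of the 10. The Crk window lies at chr11:75679009-75679308 and the Vcl window at chr14:20929148-20929447 of GRCm38.p6, each on the plus strand, with capitals as above.

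Crk: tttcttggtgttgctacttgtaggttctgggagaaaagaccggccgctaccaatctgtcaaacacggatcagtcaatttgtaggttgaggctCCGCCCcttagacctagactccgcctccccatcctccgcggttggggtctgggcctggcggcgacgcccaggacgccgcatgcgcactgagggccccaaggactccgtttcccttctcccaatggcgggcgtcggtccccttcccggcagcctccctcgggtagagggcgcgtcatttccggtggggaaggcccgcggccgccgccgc
Vcl: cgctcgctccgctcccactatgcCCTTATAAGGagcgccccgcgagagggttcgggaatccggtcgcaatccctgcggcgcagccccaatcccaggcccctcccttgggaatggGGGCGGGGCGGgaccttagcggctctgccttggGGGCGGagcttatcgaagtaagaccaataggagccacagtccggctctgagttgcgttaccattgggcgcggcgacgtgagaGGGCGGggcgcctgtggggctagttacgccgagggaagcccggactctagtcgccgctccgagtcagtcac

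The Crk window held 1 GC box and had a GC content of 65.0%. The Vcl window held 4 GC boxes and, 227 bases before the start, the letters of a CArG box, and had a GC content of 66.7%. Neither held a CACCC box. Of the 7 genes with a window, 5 held a GC box, 5 a CACCC box and 2 a CArG box, in Vcl and Fermt2. The estimated differences of those 2 genes had opposite signs, neither passed adjustment, and the part of the box in them was not tested. Vcl, Fermt2 and Ptk2b lie on chromosome 14 in GRCm38.p6, as does Klf5, and the part of linked DNA in their values was not tested.

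Zyx encodes zyxin, a LIM protein that gathers at stressed actin fibres and plaques. Zyx (transcript cluster 10537770) was at 7.70, 7.89, 8.02 and 8.11 in KO replicates 2 to 5, against 7.87, 8.25, 8.16, 7.69 and 7.78 in WT replicates 2 to 6. KO values lay inside the WT range, with KO replicate 2 and WT replicate 5 lowest. The difference was -0.02 (95% interval -0.33 to 0.28, limma adjusted p = 0.983).

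**Figure D3:**
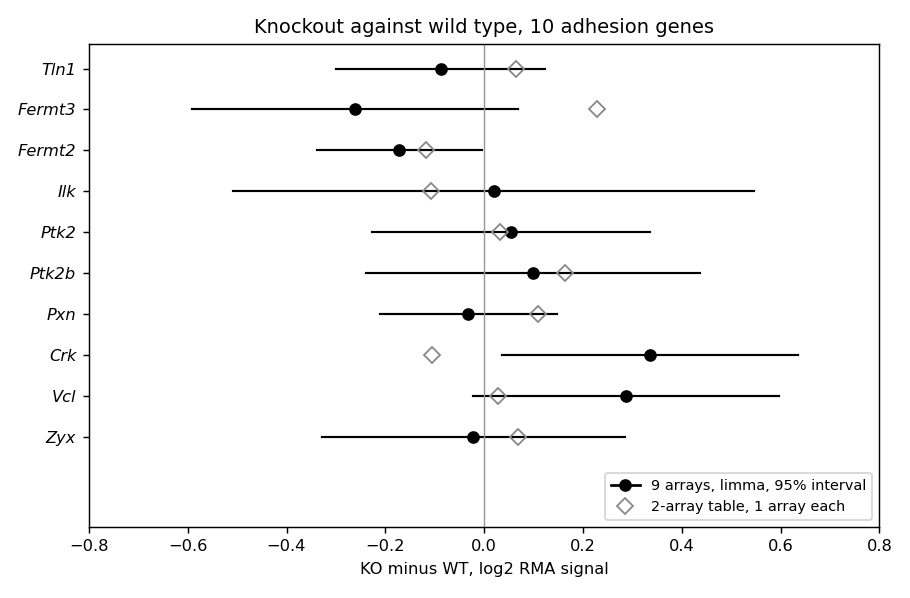
Difference KO minus WT in log2 RMA signal (x axis) for the 10 genes, ordered by role; black points and lines are the limma estimate and 95% interval from 4 KO and 5 WT arrays, and open diamonds the single KO minus the single WT array of the 2-array table. The intervals of Crk and Fermt2 leave out 0 before adjustment, and the diamonds of 4 of 10 genes lie on the same side of 0 as the estimates.

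The sign of the difference was the same in the 2-array table for 4 of the 10 genes, Vcl, Fermt2, Ptk2 and Ptk2b. The 2-array values had no test of their own, and their largest difference was that of Fermt3, at 0.23.

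KO replicate 2 alone was the lowest KO array in 6 of the 10 genes, and shared the lowest value with KO replicate 5 in Vcl. Of all 9 arrays, WT replicate 3 was lowest in 4 genes, Ptk2, Ptk2b, Pxn and Crk. KO replicate 2 was lowest of the 9 in 3, Tln1, Fermt3 and Ilk. How often each array was lowest over all transcript clusters was not counted, so no such count here is read as particular to its list. KO replicate 5 was the highest KO array in 6 genes. The mean over the 10 genes was 6.80, 7.02, 7.03 and 7.10 in KO replicates 2 to 5, against 7.02, 6.94, 7.01, 6.88 and 6.99 in WT replicates 2 to 6. KO replicate 2 was therefore lowest of all 9 arrays, and the WT arrays lay inside the KO range. The same array had the lowest mean of 10 megakaryocyte and platelet markers, whose list mean ran from 6.11 to 6.95 in KO and from 6.30 to 6.80 in WT. It was the lowest of the 9 arrays in 4 of these 10 markers and not in the other 6. It also had the lowest mean of 12 neutrophil and macrophage markers, which ran from 6.00 to 6.86 in KO and from 6.04 to 6.30 in WT. KO replicate 2 was lowest of the 9 arrays in 5 of the 12, Elane, Mpo, Prtn3, Ltf and Adgre1, and not in the rest. Camp was highest of the 9 arrays there, at 5.45. Of these markers, 7 of 10 megakaryocyte and 5 of 12 neutrophil genes lay above the negative-control median on every array, and their part in the low Tln1, Fermt3 and Ilk signals of KO replicate 2 was not tested. KO replicate 2 was not the lowest of the 9 arrays in the mean of any other list read. Those were the stem and progenitor, stromal and endothelial, B cell, T and NK cell, erythroid, and mast cell and basophil markers. For Fermt2, the 12 stromal and endothelial markers are the relevant list, since kindlin-2 is abundant in such cells. Their mean ran from 5.67 to 5.91 in KO and from 5.75 to 5.87 in WT. Lower means in KO were found in 11 of 12, where 16193 of all 28944 transcript clusters were lower in KO. Their median difference was small, at -0.037, against -0.019 over all transcript clusters. On every array 5 of 12 lay above and 3 of 12 below the negative-control median, and the part of these markers in the lower Fermt2 signal was not tested.

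**Figure D4:**
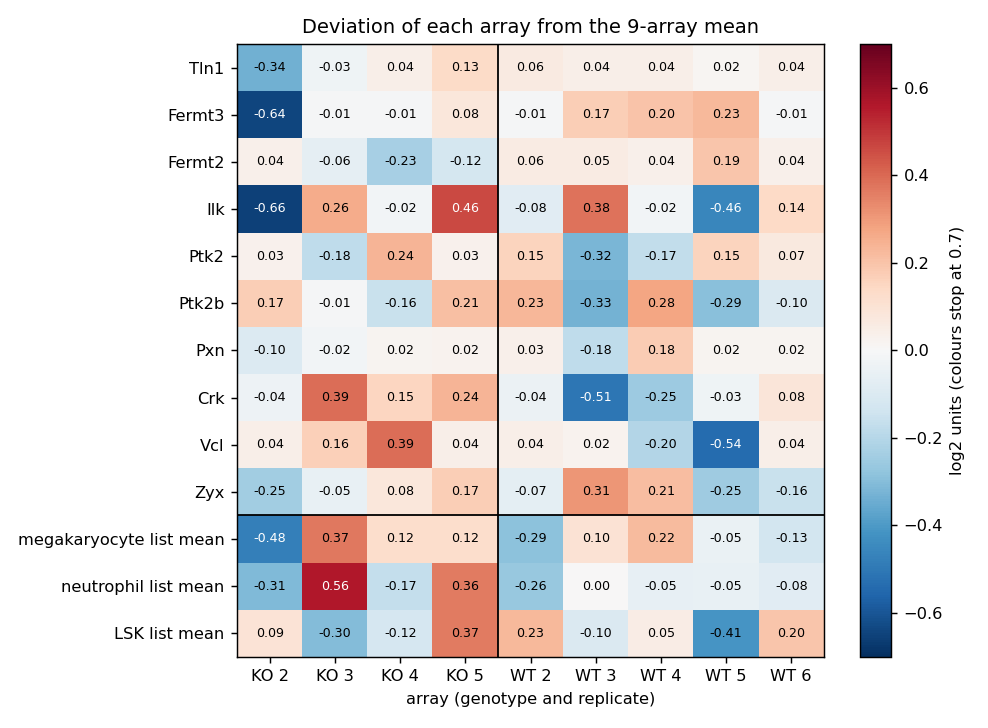
Deviation of each array from the 9-array mean in log2 units (colour and printed value), for the 10 genes in order of role and, below the line, the means of 3 marker lists; columns are the 4 KO arrays, then the 5 WT arrays. KO replicate 2 is lowest in Tln1, Fermt3, Ilk and the megakaryocyte and neutrophil lists, and not in the LSK list.

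Within genotypes, Tln1, Fermt3 and Ilk varied together across the 9 arrays mainly through 1 array, KO replicate 2. After each genotype's mean was subtracted, Pearson's r was 0.88 between Tln1 and Fermt3 (n = 9 arrays that share their normalization), and 0.08 without KO replicate 2. Between Tln1 and Ilk it was 0.77, and 0.33 without that array. Fermt3 and Ilk had 0.65, and -0.11 without it. Ilk and Zyx, at 0.73, had 0.64 without it, and Ptk2b and Pxn, at 0.59, had 0.71. Over the 45 pairs the median r was 0.02, with 7 pairs above 0.5 and 5 below -0.5, and without KO replicate 2 there were 3 pairs above 0.5. Vcl and Fermt2 ran in opposite directions, at -0.75. Among 15681 transcript clusters with a mean above the highest negative-control median, the 5 genes most like the mean of the 10 by Pearson's r over the 9 arrays were E2f8 (0.984), Tmem50a (0.965), Calml4 (0.961), Hadh (0.959) and Nrf1 (0.958). All 5 were lowest in KO replicate 2, their r without that array ran from 0.837 to 0.948, and with so many genes and 9 arrays, values of this size are a description only.

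In the wider pathway, 68 further genes were read, and 0 of 68 passed adjustment in limma (lowest adjusted p 0.916). Differences were above 0 for 32 and below 0 for 36, with a median of -0.009, against -0.019 over all transcript clusters. An unadjusted p under 0.05 was reached by 4 of 68 (5.88%), 1 with a higher and 3 with a lower mean in KO, against 4.08% of all transcript clusters. In 0 of 68 did the KO and WT arrays separate without overlap, with a shared value again counted as overlap. In some of them, Sorbs3 (6.4138) for example, the groups met only at a shared value.

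Among 10 further integrin activators, 4 had higher and 6 lower means in KO. Rapgef1, which encodes the Rap1 exchange factor that Crk recruits, was at 6.76, 6.65, 6.70 and 6.81 in KO replicates 2 to 5, against 6.79, 6.96, 6.997, 6.95 and 6.81 in WT replicates 2 to 6. Only KO replicate 5 reached into the WT range. Its difference was -0.17 (unadjusted p 0.0396, limma adjusted p 0.916), opposite in sign to Crk, and a second Rapgef1 transcript cluster gave -0.21 (unadjusted p 0.203 in limma). The 8 inhibitors of integrin activation, filamin and Rap1 GTPase-activating genes among them, split into 4 higher and 4 lower, and Rap1gap, which turns Rap1 off, had the smallest p, with a difference of -0.15 (unadjusted p 0.0816). ILK partners, the parvins and PINCH proteins that hold ILK in its complex, had 4 of 6 means higher in KO, and the smallest p was that of Lims2 (PINCH-2), at -0.09 (unadjusted p 0.263).

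Of 12 kinases and phosphatases, 7 had higher means in KO. Lyn, a Src-family kinase of blood cells, was at 7.72, 7.68, 7.68 and 7.89 in KO replicates 2 to 5, against 7.19, 7.04, 7.77, 7.24 and 7.68 in WT replicates 2 to 6. WT replicates 2, 3 and 5 lay below every KO array, WT replicate 6 held the same value as KO replicates 3 and 4, and WT replicate 4 lay among the KO arrays. The Lyn difference was 0.36 (unadjusted p 0.045, limma adjusted p 0.916). Of 19 further adaptors, 8 were higher and 11 lower, and Sorbs3 (vinexin, a vinculin-binding protein) had a difference of -0.20 (unadjusted p 0.0433). Of 13 actin linkers, 5 were higher and 8 lower, and Trip6, a LIM protein of the zyxin family, had -0.28 (unadjusted p 0.0471). The limma adjusted p was 0.916 for Sorbs3 and for Trip6.

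**Figure D5:**
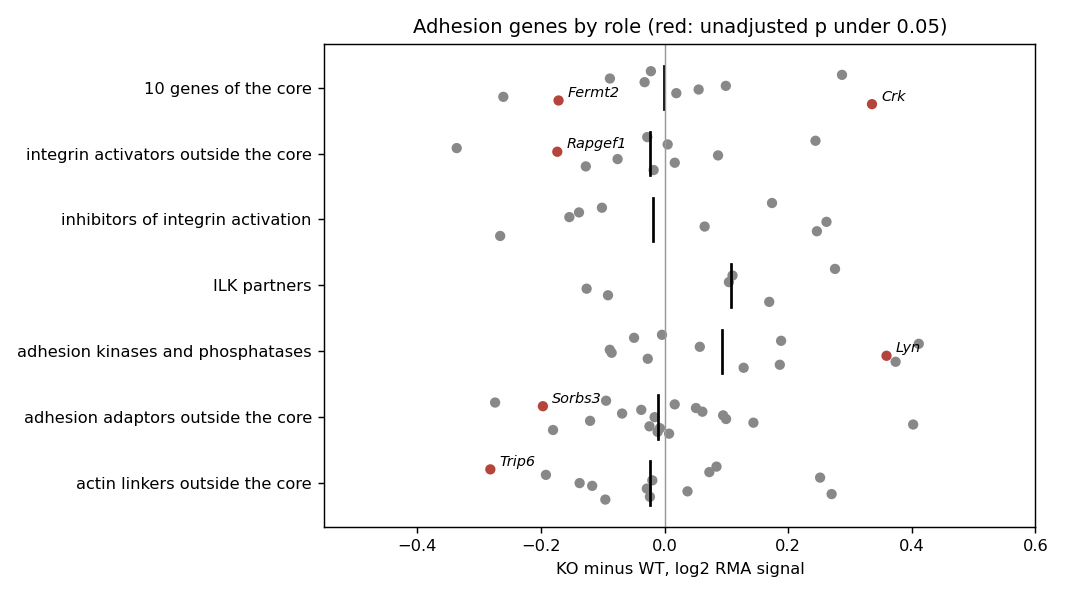
Difference KO minus WT in log2 RMA signal (x axis) for the 10 genes and for 68 further adhesion genes by role (rows); each point is 1 gene, vertical bars are medians, and named red points had an unadjusted p under 0.05. Every list lies on both sides of 0, and no gene passed adjustment.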

How the data were processed

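Per the labels, total RNA of sorted LSK cells was labelled with biotin, and per the series' design text it was hybridised to Affymetrix Mouse Gene 1.0 ST arrays. The authors deposited log2 RMA signals, gene-level with default settings per the file headers, in a table of 9 arrays and a table of 2 arrays, made with Affymetrix Expression Console per the submitters' processing notes of unstated version. The replicate numbers came from another deposited table, whose 11 columns are tied to samples: each differed by at most 5e-05 (log2) from 1 column of the RMA tables. The labels name 5 KO and 6 WT samples. After 6612 control rows were left out, 28944 transcript clusters were fitted with limma 3.58.1 in R 4.3.3 (KO minus WT, two-sided, no covariate, Benjamini-Hochberg over all rows). A gene's row of highest mean was used. Symbols were updated through RefSeq accessions (GRCm38.p6), with 22114 rows matched. The fit was tested on simulated data.

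The genes and lists were chosen with earlier results of these data known. Named genes are the 10 genes, in each further list the gene of smallest p and those at an unadjusted p under 0.05, and the 5 genes of highest correlation; Klf5, Xist and Hbb-b1 are given as checks of the samples. Arrays carry no read depth, and their number limits the precision (median standard error 0.116). Nothing in the labels says that arrays are separate animals, so the spread behind the p-values may be technical. Alternatives covered the value table, 2 normalizations, all 11 arrays, sex-linked and Hbb-b1 covariates, a filter on dim rows, array weights, another variance model, leaving out each array, a replicate block and the methods' t-test. Same-numbered KO and WT arrays, by the sample titles, had correlated deviations of 0.133, 0.11, 0.12 and -0.242 in replicates 2 to 5. The numbers were not taken to pair the samples. Differently numbered arrays were not compared, so a pairing or shared processing across other numbers was not tested. Figures were drawn with matplotlib 3.10.9.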

Additional observations from a re-analysis of the deposited data

Results flagged for a closer look

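Of 22 groups of 4 or 5 arrays screened (the 10 genes and their mean, KO and WT), 2 held an array far from the rest by Dixon's test, where chance gives about 1 in 20, or 1.1 here. Fermt3 in KO replicate 2 was low at 6.60, with the nearest KO array at 7.23. Fermt2 in WT replicate 5 was high at 5.20, with the nearest WT array at 5.07, and both values lay below the negative-control median of their arrays.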

How the results depend on the processing

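Over 21 other settings, 0 of 209 values of the 10 genes passed adjustment (lowest adjusted p 0.768), and 0 transcript clusters passed in any of them, with 1181 at an unadjusted p under 0.05 as reported, 1150 in the methods' t-test, 700 with only rows above the negative controls and 1850 without KO replicates 2 and 5 and WT replicate 6. Of the 1181, 420 were higher in KO, and after median centring 695 of 1140. Vcl, Fermt3, Fermt2 and Crk kept their direction in every setting that gave a value, and the filter on dim rows removed Fermt2. In 19 values the sign turned. Zyx was 0.155 and Ptk2 -0.071 with the sex-linked covariates, Ilk -0.004 with all 11 arrays and -0.018 after quantile normalization, Ptk2b -0.012 and Zyx 0.023 with array weights, Pxn 0.002 and Zyx 0.012 after median centring, and Ptk2b -0.052 without those 3 arrays. With each array left out, Tln1 ran from -0.149 to 0.008, Ilk from -0.131 to 0.241, Ptk2 from -0.019 to 0.124, Ptk2b from 0.028 to 0.179, Pxn from -0.08 to 0.009, Zyx from -0.086 to 0.056, Crk from 0.246 to 0.410 and Fermt2 from -0.215 to -0.125. The cause was not tested.

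The 2 of the 10 genes at an unadjusted p under 0.05 became 1 with Hbb-b1 as a covariate, with all 11 arrays, after median centring or quantile normalization, with the dim-row filter and in the methods' t-test, and 0 with the sex-linked covariates. With an array left out the count ran from 0 to 2. The 4 of 68 further genes became 0 with all 11 arrays and with the trend and robust variance model, 2 with array weights or median centring, 1 after quantile normalization or with the dim-row filter, and 1 to 4 with an array left out. With the replicate number as a block, over the numbers both genotypes hold, the count was 0 of 10 and 5 of 68, Crk had a difference of 0.394 (limma unadjusted p 0.0504), and the numbers are not known to pair the samples. All 10 genes had a single row, so another row could not be tried.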

Other observations

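Arrays of both genotypes often held the identical deposited value for a gene. Of 28944 transcript clusters, 57.5% had 2 or more of the 9 arrays at the same value to every digit deposited, and 32.1% had 3 or more. Among the 10 genes this held for 7 with at least 2 arrays and for 5 with at least 3: Tln1 and Vcl with 4 arrays each, and Fermt3, Fermt2 and Pxn with 3. WT replicate 6 was among the identical arrays in all 5 of these genes. In Tln1, 3 of the 5 WT arrays were equal at 8.1374, and WT replicates 2 and 5 lay close by at 8.158 and 8.1138. In Vcl the lowest KO value and the highest WT value were the same number. Whether such shared values alter the spread within a group or the distance between groups was not tested. The part of the RMA summary step in these values was not tested.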
